A study of Homo sapiens with 4 samples.

Results

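The expression of 8 genes of zinc and metal handling was followed in human cancer cells exposed to CPYPP, a small-molecule inhibitor of DOCK proteins. They were the metallothionein genes MT1E, MT1F, MT1G, MT1M, MT1X and MT2A, the metal-sensing transcription factor MTF1 and the zinc exporter SLC30A1. The members were the rows of the deposited count table that carry these symbols, 8 of 61806 genes, and each symbol had 1 row. The poly(A) RNA of MDA-MB-231 (breast cancer) and MDA-MB-435 (melanoma), both given as wild type, was sequenced once as an untreated control and once after 10 µM CPYPP for 6 h. The 4 libraries, 1 per condition, are called 231-CTL, 231-CP, 435-CTL and 435-CP after their labels. The samples' treatment description names MDA-MB-435 alone, and the line of each library was taken from its cell line label. The comparison asked whether genes that respond to metal stress were higher after CPYPP.

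Metallothioneins are small cytosolic proteins whose many cysteines bind zinc, copper and cadmium through their thiols and can also react with oxidants. Free zinc binds the zinc fingers of MTF1, which then enters the nucleus and activates metallothionein genes and SLC30A1 through short promoter motifs called metal response elements. Rising metallothionein and SLC30A1 mRNA is therefore a common readout of excess zinc or cadmium, and oxidative stress can act on the same genes by releasing bound zinc. MTF1 itself is controlled largely through its protein rather than its mRNA.

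The libraries held between 17196385 and 22663954 counts, and the CPYPP library was the smaller of each line. Levels were scaled with edgeR's TMM factors, which lay between 0.958 and 1.06, and are given as CPM (counts scaled to a common library size). The melanocyte lineage gene SOX10 had 0 and 1 counts in the MDA-MB-231 libraries and 3031 and 707 in those of MDA-MB-435, whereas KRT19, a keratin of epithelial cells, had 3953 and 2225 against 4 and 0. S100B, a gene of melanocytes and other neural crest cells, had 1055 and 761 counts in MDA-MB-435, against 0 in both MDA-MB-231 libraries. Other melanocyte genes did not set the lines apart in this way. MITF had 1585 and 690 counts in MDA-MB-231 against 1405 and 809 in MDA-MB-435, and MLANA had 8 and 14 against 9 and 14. The pigment gene PMEL had 34 and 29 counts against 13 and 4, and TYR, also a pigment gene, had at most 3 in any library. KRT18, a further keratin, had 5740 and 4077 counts in MDA-MB-435, so that it did not set the lines apart as KRT19 did. KRT8 had 12813 and 9549 counts in MDA-MB-231 against 522 and 310, and EPCAM had 387 and 287 against 2 and 0. CD44 and MSN were abundant in both lines. CD44 had 27537 and 20016 counts against 36689 and 27990, and MSN had 23823 and 23608 against 27781 and 26099. With 1 library per condition there is no replicate spread. Intervals given with a fold are 95% exact binomial (Clopper-Pearson) intervals and cover counting error only. A test on the reads of both libraries of a line compares those libraries and not the conditions. In bulk RNA, fewer cells that express a gene and less of its RNA per cell cannot be told apart.

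The metallothionein members lie together on chromosome 16 of GRCh38 in the order MT2A (56608584 to 56609497), MT1E (56625475 to 56627112), MT1M (56632659 to 56633981), MT1F (56657731 to 56660698), MT1G (56666730 to 56668065) and MT1X (56682470 to 56684196), with MT1G on the minus strand. Both other genes lie on the minus strand of chromosome 1, MTF1 from 37809574 to 37859592 and SLC30A1 from 211571568 to 211579161. The coding sequences of the 4 metallothioneins with reads to compare are shown because their likeness bears on how far their counts can be told apart. They were read from the GENCODE v29 transcripts, run 5′ to 3′ over 186 bases with the stop codon, and carry the cysteine codons in capitals.
MT2A: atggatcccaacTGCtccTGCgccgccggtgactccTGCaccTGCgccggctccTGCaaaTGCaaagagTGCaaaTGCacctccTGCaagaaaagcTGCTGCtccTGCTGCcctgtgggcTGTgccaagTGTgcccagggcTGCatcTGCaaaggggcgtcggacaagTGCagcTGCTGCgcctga
MT1E: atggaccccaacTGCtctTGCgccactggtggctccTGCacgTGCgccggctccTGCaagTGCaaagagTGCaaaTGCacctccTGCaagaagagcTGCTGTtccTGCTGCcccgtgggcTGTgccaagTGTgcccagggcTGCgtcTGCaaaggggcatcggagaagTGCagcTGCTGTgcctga
MT1X: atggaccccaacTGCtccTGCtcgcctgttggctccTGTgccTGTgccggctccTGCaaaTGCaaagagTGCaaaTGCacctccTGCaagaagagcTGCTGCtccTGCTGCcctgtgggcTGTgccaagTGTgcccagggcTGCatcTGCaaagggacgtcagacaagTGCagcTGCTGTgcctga
MT1F: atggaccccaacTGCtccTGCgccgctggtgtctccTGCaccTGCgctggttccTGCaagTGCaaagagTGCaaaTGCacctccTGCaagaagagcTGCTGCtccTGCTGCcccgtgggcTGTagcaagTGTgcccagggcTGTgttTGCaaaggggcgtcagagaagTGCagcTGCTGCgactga
In each of them 20 of 61 codons are cysteine codons, or 32.8%. MT1E and MT2A shared 92.5% of aligned positions, MT1X and MT2A 93.0%, and MT1F and MT1X 88.7%. The longest stretch identical between the transcripts of MT1X and MT2A was 66 bases, and that between MT1E and MT2A was 32 bases. A read inside such a stretch fits more than 1 gene, so that the counts of single metallothioneins are uncertain. Their sum does not depend on how reads were split among them. Any read left out of the counts because it fits more than 1 gene is missing from the sum as well. MT1X and MTF1 each overlap another annotated gene, and both of those had 0 counts in all 4 libraries.

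The 250 bases before the start of MT2A, MT1X, SLC30A1 and MTF1 are shown because the metal response element is the sequence through which MTF1 acts. They were taken from RefSeq promoters of GRCh38.p14, which matched 4 of the 8 members, and run 5′ to 3′ on the strand of the gene. The cores TGCACNC and TGCGCNC, searched on both strands, are in capitals.
MT2A (chr16:56608334-56608583, plus strand): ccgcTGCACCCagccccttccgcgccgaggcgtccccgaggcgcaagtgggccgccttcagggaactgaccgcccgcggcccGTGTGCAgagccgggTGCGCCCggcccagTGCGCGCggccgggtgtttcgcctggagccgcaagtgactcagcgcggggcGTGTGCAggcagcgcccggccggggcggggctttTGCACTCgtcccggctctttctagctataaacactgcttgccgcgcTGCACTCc
MT1X (chr16:56682220-56682469, plus strand): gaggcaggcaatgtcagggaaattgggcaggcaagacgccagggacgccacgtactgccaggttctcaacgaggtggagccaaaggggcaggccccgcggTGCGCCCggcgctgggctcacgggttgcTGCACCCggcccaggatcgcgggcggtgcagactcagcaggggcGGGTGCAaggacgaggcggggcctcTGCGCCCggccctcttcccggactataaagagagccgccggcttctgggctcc
SLC30A1 (chr1:211579162-211579411, minus strand): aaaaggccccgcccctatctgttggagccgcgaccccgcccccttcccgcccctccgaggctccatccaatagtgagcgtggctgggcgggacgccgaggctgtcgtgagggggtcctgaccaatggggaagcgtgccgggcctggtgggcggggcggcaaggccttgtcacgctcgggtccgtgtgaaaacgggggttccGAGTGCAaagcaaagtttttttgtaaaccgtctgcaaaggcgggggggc
MTF1 (chr1:37859593-37859842, minus strand): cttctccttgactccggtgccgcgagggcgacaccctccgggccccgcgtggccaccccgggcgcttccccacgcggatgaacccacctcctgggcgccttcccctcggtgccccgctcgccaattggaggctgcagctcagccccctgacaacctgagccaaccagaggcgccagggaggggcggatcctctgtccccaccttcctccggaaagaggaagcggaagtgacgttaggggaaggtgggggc
MT2A held 7 matches, MT1X 4, SLC30A1 1 and MTF1 0. Among 35116 promoter windows of the same length, 24.8% held at least 1 match, 0.370% at least 4 and 0.0513% at least 6. The antioxidant response element core TGACNNNGC, the motif of NRF2, was found once each in MT2A, MT1X and SLC30A1 and in 10.9% of all windows. In MT2A it reads TGACTCAGC from position -104 to -96 relative to the start and none of these matches overlapped a metal response element match. The heat shock element core GAANNTTC was found in none of the 4 windows and in 5.78% of all windows. A match of letters is a description and not a bound site.

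The abundant metallothioneins were lower after CPYPP in both lines, while MTF1 was higher in both. In the fit that joins both lines, which treats the line as a block, MT2A and MT1E fell and MTF1 rose, and the other 3 members tested did not pass. That fit called 4.39% of 16801 genes higher and 2.85% lower. With DESeq2, MTF1 did not pass (adjusted p of 0.0509). The folds of MT1X, SLC30A1 and MTF1 in the lines differed by more than counting error, which without replicates is no test of a difference between the lines. None of the members moved more than 2-fold in either line beyond an adjusted p-value of 0.05.

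**Figure D1:**
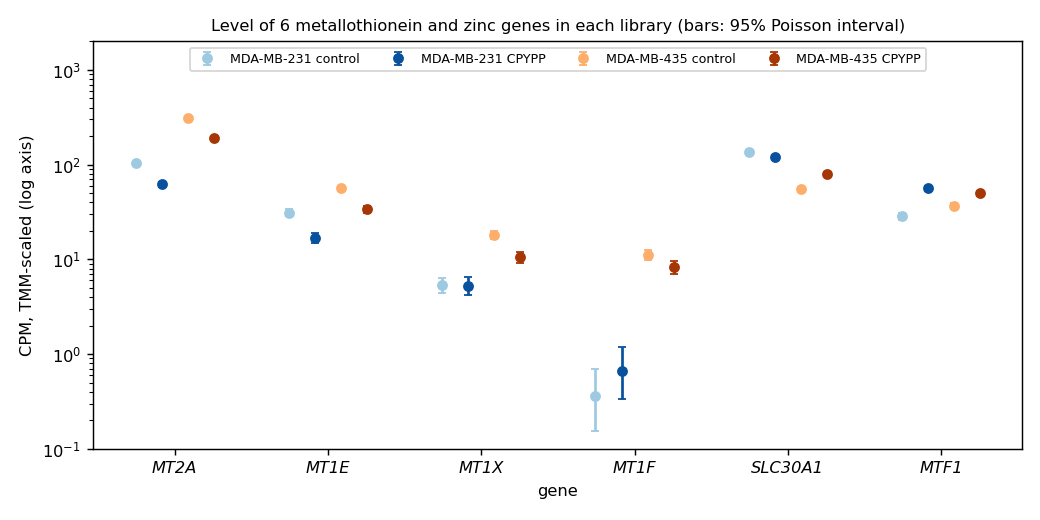
Points are the CPM of each gene in each of the 4 libraries on a log axis, with bars for the 95% Poisson interval of the count. MT2A and MT1E sit lower in the CPYPP library of both lines, MTF1 sits higher in both, and MT1F lies below 1 CPM in both MDA-MB-231 libraries.

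MT2A, the most abundant of the metallothioneins in these cells, had 2312 counts in 231-CTL and 1020 in 231-CP. It had 7529 counts in 435-CTL and 3645 in 435-CP. On the CPM scale these levels were 103.2 (231-CTL), 61.9 (231-CP), 314.3 (435-CTL) and 189.7 (435-CP). The control library was the higher one in each line. The fold was 0.5996 (0.557 to 0.646) in MDA-MB-231, with an adjusted p of 6.3e-43 in the exact binomial test, and 0.604 (0.580 to 0.628) in MDA-MB-435, with an adjusted p of 5.79e-143. The ratio of these folds, MDA-MB-435 over MDA-MB-231, was 1.01 with a 95% interval of 0.925 to 1.10. Across both lines the log2 change was -0.75 (SE 0.11), with an adjusted p of 0.00291 by edgeR's quasi-likelihood test.

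MT1E, which lies next to MT2A among the members, had folds close to those of MT2A. Its counts were 699 in 231-CTL and 278 in 231-CP, or 31.2 and 16.9 CPM. In MDA-MB-435 they were 1348 and 647, or 56.3 and 33.7 CPM. Here, too, the control library was higher in both lines. The fold was 0.541 (0.469 to 0.622) in MDA-MB-231, against 0.598 (0.544 to 0.658) in MDA-MB-435, and the exact binomial test gave adjusted p-values of 3.26e-18 and 5.37e-27. The ratio of the folds was 1.11 (0.933 to 1.32), an interval that holds 1. The change over both lines was -0.83 (SE 0.14) on the log2 scale, with an adjusted p of 0.00728 by the quasi-likelihood test.

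The folds of MT1X in the lines were apart by more than counting error. With 1 library per condition that is no test of a difference between the lines. It had 119 counts in 231-CTL and 87 in 231-CP, which came to 5.31 and 5.28 CPM once the libraries were scaled. It had 431 counts in 435-CTL and 201 in 435-CP, or 18.0 and 10.5 CPM. The values of MDA-MB-231 were thus nearly equal, and those of MDA-MB-435 were apart. The fold was 0.994 (0.745 to 1.32) in MDA-MB-231, with an adjusted p of 1 by the exact binomial test, and 0.581 (0.489 to 0.689) in MDA-MB-435, with an adjusted p of 4.46e-10. The ratio of the folds was 0.586, with a 95% counting interval of 0.419 to 0.820 that lies below 1. The effect over both lines did not pass the quasi-likelihood test, with a log2 value of -0.46 (SE 0.25) and an adjusted p of 0.346.

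MT1F was rare in MDA-MB-231, with 8 counts in 231-CTL and 11 in 231-CP, or 0.357 and 0.668 CPM. In MDA-MB-435 it had 264 and 160 counts, or 11.02 and 8.33 CPM. Its control level was 30.9 times as high in MDA-MB-435 as in MDA-MB-231 (15.4 to 72.2), a wider gap than for any other member tested. The fold after CPYPP was 1.87 in MDA-MB-231, where the interval of 0.685 to 5.35 leaves the direction undetermined at this depth. In MDA-MB-435 the fold was 0.756 (0.617 to 0.923), with an adjusted p of 0.0124 by the exact binomial test. The effect over both lines had an adjusted p of 0.894, and the ratio of the folds, 0.405, had an interval of 0.138 to 1.13 that includes 1.

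MT1G and MT1M, a further pair of cysteine-rich metallothioneins, were close to absent. MT1G had 1 count in 231-CTL and 0 in the other 3 libraries. MT1M had 1 count in 231-CTL, 2 in 231-CP and 0 in both libraries of MDA-MB-435. Neither reached the 10 counts needed for a test, both stayed at or under the floor of 3 counts in every library, and no fold was formed. After CPYPP the upper limit of the 95% Poisson interval was 0.224 CPM for MT1G and 0.4385 CPM for MT1M in 231-CP, and 0.192 CPM for each of them in 435-CP.

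Summed over the metallothionein list, 21 genes and pseudogenes of the family that the table holds, the counts were 3159 in 231-CTL, 1412 in 231-CP, 9813 in 435-CTL and 4778 in 435-CP. The share of all counts was 0.0141% in 231-CTL, with a 95% exact binomial interval from 0.0136% to 0.01463%, against 0.00821% (0.00779% to 0.00865%) in 231-CP. It was 0.0433% (0.0425% to 0.0442%) in 435-CTL against 0.0245% (0.0238% to 0.0252%) in 435-CP. The summed metallothionein mRNA was therefore lower in the CPYPP library of each line. With TMM scaling, the fold was 0.608 (0.570 to 0.647) in MDA-MB-231, against 0.607 (0.586 to 0.629) in MDA-MB-435. By total counts, as in these shares, it was 0.581 against 0.566. MT2A made up between 72.2% and 76.7% of this sum. Without it the folds were 0.629 (0.557 to 0.710) and 0.619 (0.575 to 0.664), so that the sum did not rest on MT2A alone. In MDA-MB-231 this remainder was mostly MT1E, with 699 of 847 counts in 231-CTL and 278 of 392 in 231-CP. The fold of MT1X there was 0.994, so that the lower sum in this line does not describe every family gene.

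**Figure D2:**
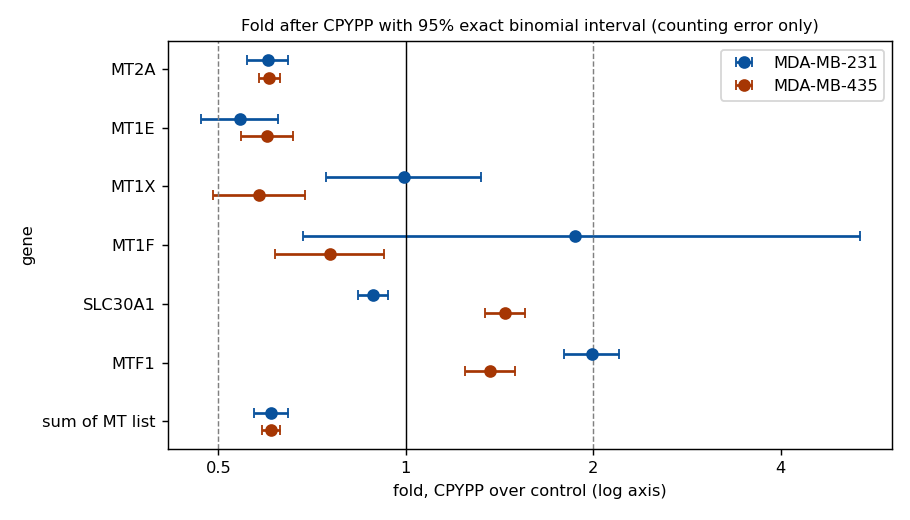
Points are the fold of CPYPP over control in each line on a log axis, with bars for the 95% exact binomial interval, and dashed lines mark folds of 0.5 and 2. MT2A, MT1E and the summed metallothionein list (sum of MT list) lie left of 1 in both lines, MTF1 lies right of 1 in both, and SLC30A1 lies on opposite sides.

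Other genes of the family added little. Among them only MT1A, MT1L and MT2P1 had 10 counts or more in a library. MT1A had 9 and 10 counts in MDA-MB-231, with a fold of 1.51 (0.552 to 4.20), and 0 in both libraries of MDA-MB-435. MT1L, annotated as a pseudogene, had 2 and 0 counts in 231-CTL and 231-CP but 209 and 116 in 435-CTL and 435-CP, with a fold of 0.692 (0.547 to 0.872) in the melanoma line. MT2P1, also a pseudogene, had 5 and 2 counts in the breast cancer line and 31 and 9 in the melanoma line. Its fold in the melanoma line, 0.362 (0.152 to 0.779), was the one call of the whole list at a fold over 2. By that rule 7.16% of all genes were called lower in this line. The interval of MT2P1 holds the fold of MT2A in the same line, 0.604. MT1B, MT1H, MT3 and MT4 had 0 counts in all 4 libraries. The promoter window of MT1H, silent in these cells, held 8 matches to the metal response element core, 1 more than that of MT2A, and is shown for that contrast.
MT1H (chr16:56669564-56669813, plus strand): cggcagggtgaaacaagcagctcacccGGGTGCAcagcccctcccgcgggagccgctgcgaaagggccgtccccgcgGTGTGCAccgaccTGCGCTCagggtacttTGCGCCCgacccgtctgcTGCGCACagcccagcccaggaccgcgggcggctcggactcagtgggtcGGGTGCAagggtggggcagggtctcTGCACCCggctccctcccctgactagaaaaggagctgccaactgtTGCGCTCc
The windows of MT1B and MT4, at 0 counts as well, held 3 matches each, fewer than those of MT1X and MT2A.

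SLC30A1 encodes ZnT1, the zinc exporter of the plasma membrane and an MTF1 target. It had 3065 counts in 231-CTL and 1998 in 231-CP, or 136.9 and 121.3 CPM. It had 1330 counts in 435-CTL and 1538 in 435-CP, or 55.5 and 80.0 CPM. Its scaled level was thus a little lower after CPYPP in the first line and higher in the second. The fold was 0.886 (0.837 to 0.938) in MDA-MB-231, against 1.44 (1.34 to 1.55) in MDA-MB-435, with adjusted p-values of 0.000103 and 1.63e-21 by the exact binomial test. The ratio of the folds was 1.63, with a counting interval of 1.48 to 1.79, and the effect over both lines had a log2 value of 0.16 (SE 0.15) and an adjusted p of 0.635 by the quasi-likelihood test. SLC30A1 was also the one member tested whose control level was lower in MDA-MB-435, at 0.406 times (0.380 to 0.433) that of MDA-MB-231.

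MTF1, the transcription factor that senses zinc, moved opposite to MT2A and MT1E. It had 636 counts in 231-CTL and 930 in 231-CP, or 28.4 and 56.4 CPM. It had 876 counts in 435-CTL and 958 in 435-CP, or 36.6 and 49.9 CPM. The CPYPP library was the higher one in both lines. The fold was 1.99 (1.80 to 2.202) in MDA-MB-231, just under the threshold of 2, and 1.36 (1.24 to 1.496) in MDA-MB-435. The exact binomial test gave adjusted p-values of 4.66e-40 and 2.33e-10. The ratio of the folds was 0.686 (0.597 to 0.788), below 1 by counting error. Over both lines MTF1 rose by 0.70 (SE 0.16) on the log2 scale, with an adjusted p of 0.0284 by the quasi-likelihood test and of 0.0509 with DESeq2, where it no longer passed.

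Levels of different genes were compared per length, as fragments per kilobase of the listed exons, on the CPM scale (FPKM). In 231-CTL the order was MT2A at 113.0 FPKM, MT1E at 29.7, SLC30A1 at 23.2, MTF1 at 3.56, MT1X at 3.08 and MT1F at 0.193. In 435-CTL it was MT2A at 343.8 FPKM, MT1E at 53.5, MT1X at 10.4, SLC30A1 at 9.42, MT1F at 5.95 and MTF1 at 4.58. MT2A thus led in both lines, and MT1X and MT1F ranked higher in MDA-MB-435. The counting intervals of the neighbours MTF1 and MT1X overlapped in 231-CTL, as did those of MT1X and SLC30A1 in 435-CTL, while the other neighbours in these orders were apart. After CPYPP the level of MTF1 was 7.07 FPKM in MDA-MB-231, against 6.24 in MDA-MB-435, where MT1X had 3.06 and 6.06 and the intervals overlapped in the second line. The exon lengths are unions over transcripts, which lowers the FPKM of genes that carry long rare transcripts. Between the control libraries, the level of MT2A was 3.04 times (2.91 to 3.19) as high in MDA-MB-435, that of MT1X 3.39 times (2.76 to 4.18), that of MT1E 1.80 times (1.64 to 1.98) and that of MTF1 1.29 times (1.16 to 1.43).

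Set against all genes, the members' differences were moderate. Of the 6 members tested in each line, 0 were called at a fold over 2 with an adjusted p under 0.05 in the exact binomial test. In MDA-MB-231, 4.17% of 16441 genes were called higher and 3.13% lower by that rule, and in MDA-MB-435 2.89% of 16527 were higher and 7.16% lower. At an unadjusted p under 0.05, 4 members differed in MDA-MB-231 and all 6 in the other line, whatever their fold, beside 8337 of 16441 and 9261 of 16527 genes. With a fold over 1.5 in place of 2, MDA-MB-231 had 1 member higher and 2 lower, where 8.38% of all genes were higher and 6.77% lower. MDA-MB-435 had 0 higher and 3 lower, where 7.07% and 12.7% of all genes were. By the adjusted p alone, MDA-MB-231 had 1 member higher and 3 lower, beside 23.8% and 21.5% of all genes, while MDA-MB-435 had 2 higher and 4 lower, beside 23.9% and 26.9%. Over both lines 1 member rose and 2 fell among 6 tested by the quasi-likelihood test, which called 4.39% of 16801 genes higher and 2.85% lower. These calls rest on what is assumed of the spread between cultures. If cultures are taken to vary with a biological coefficient of variation of 0.2, 0 members passed the adjusted p alone in either line, and without the line as a block 0 members passed over both lines.

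**Figure D3:**
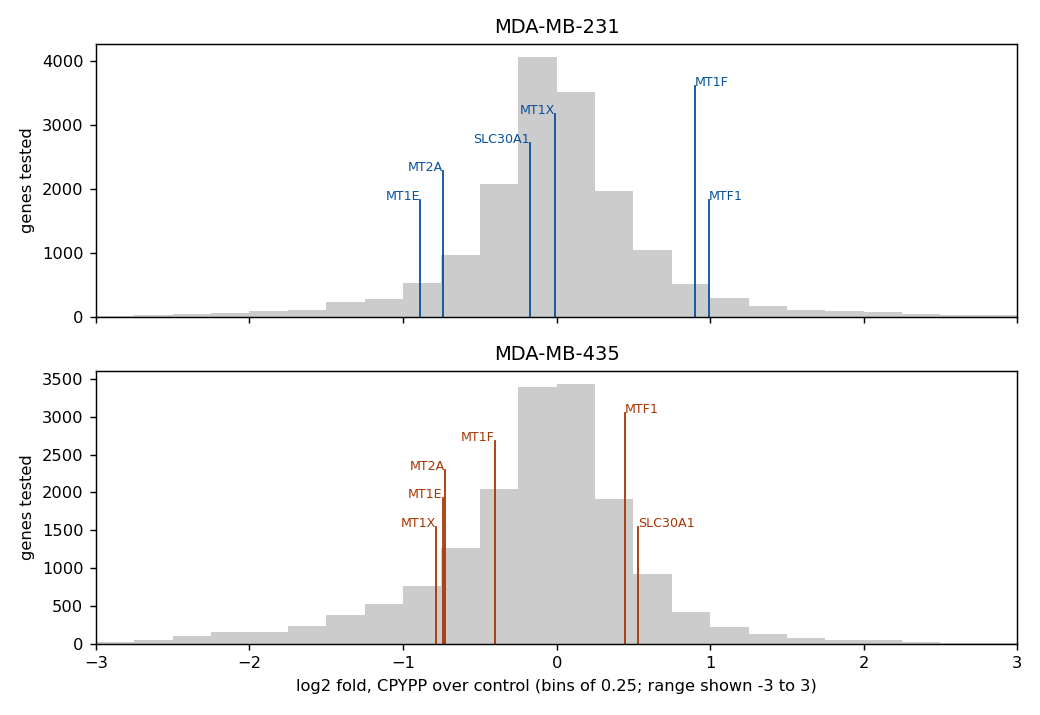
Grey bars count the genes tested in each line by log2 fold of CPYPP over control in bins of 0.25, and coloured lines mark the 6 members tested. MT1E and MT2A stand on the lower flank in both lines and MTF1 on the upper flank, at log2 folds of 0.99 and 0.45. SLC30A1 stands at -0.175 in MDA-MB-231 and at 0.53 in MDA-MB-435.

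In MDA-MB-231, 6.48% of the genes tested had a lower log2 fold than MT1E, 8.79% a lower one than MT2A and 94.6% a lower one than MTF1. For the other members tested in that line the shares were 33.3% for SLC30A1, 50.9% for MT1X and 93.5% for MT1F. The value of MT1F there rests on 8 and 11 counts. In MDA-MB-435 the shares were 15.4% for MT1E, 15.7% for MT2A, 14.6% for MT1X and 26.9% for MT1F. SLC30A1, at 88.9%, stood above MTF1, at 86.3%. The members' median log2 fold was -0.09 in MDA-MB-231, against -0.57 in MDA-MB-435, where the median of all genes tested was -0.02 and -0.06. For the metallothionein list the median was -0.01 over 5 genes tested in MDA-MB-231 but -0.74 over 6 in MDA-MB-435. In MDA-MB-231 this median is the value of MT1X, while MT2A and MT1E, which hold most of the reads, were lower.

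Other genes of zinc and copper handling were taken from lists of transporters and chaperones. Among the zinc exporters of the SLC30 family, 10 in the table and 6 tested in each line, 0 were called at a fold over 2 in either line and 0 passed over both lines, with 1 at an unadjusted p under 0.05 in the latter, as had 3553 of 16801 genes. By the adjusted p alone, MDA-MB-231 had 3 higher and 2 lower ones, against 3 and 0 for MDA-MB-435, beside 23.8% and 21.5% of all genes in the first line and 23.9% and 26.9% in the second. Their median log2 fold was 0.06 and 0.10. SLC30A7, an exporter of the secretory pathway, had folds of 1.24 (1.17 to 1.32) and 1.38 (1.27 to 1.49), the latter with an interval that overlaps that of SLC30A1. Among the zinc importers of the SLC39 family, 14 in the table and 11 tested, 0 were called in either line and 0 over both lines, with 4 at an unadjusted p under 0.05 in the latter. Their median log2 fold was -0.05 and 0.09, and by the adjusted p alone MDA-MB-231 had 5 higher and 1 lower, against 4 and 2 for MDA-MB-435, beside the same shares of all genes. SLC39A13, an importer of the secretory pathway, had folds of 0.753 (0.680 to 0.833) and 0.724 (0.667 to 0.784) and an adjusted p of 0.0646 over both lines by the quasi-likelihood test. SLC30A7 and SLC39A13 are named here after their values were seen.

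Copper handling was represented by 15 genes, of which 15 were tested in MDA-MB-231, against 13 in MDA-MB-435, and 0 were called at a fold over 2 in either line. By the adjusted p alone, MDA-MB-231 had 4 higher and 1 lower, against 4 and 4 for MDA-MB-435, beside the 23.8% and 21.5% and the 23.9% and 26.9% of all genes given above. Over both lines 2 of 14 rose and 0 fell by the quasi-likelihood test, beside 4.39% and 2.85% of all genes, and they are named here after their values were seen. SLC31A1, the copper importer CTR1, had folds of 1.49 (1.40 to 1.58) and 1.76 (1.64 to 1.897), and its change over both lines was 0.68 (SE 0.12) on the log2 scale with an adjusted p of 0.007. SOD1, the copper and zinc superoxide dismutase, had folds of 1.245 (1.19 to 1.31) and 1.81 (1.73 to 1.9), with 0.57 (SE 0.14) and an adjusted p of 0.0302.

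**Figure D4:**
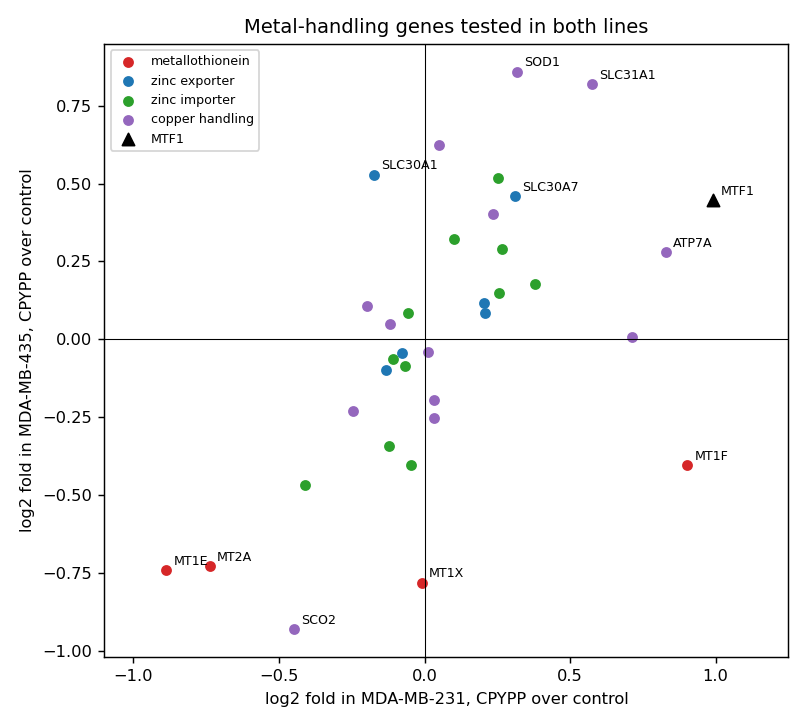
Each point is a gene of metal handling tested in both lines, placed by its log2 fold in MDA-MB-231 (horizontal) and in MDA-MB-435 (vertical), and coloured by list, with MTF1 as a triangle. MT1E and MT2A stand in the lower left with low values in both lines, MTF1, SLC31A1 and SOD1 stand in the upper right, and the zinc transporters lie between -0.47 and 0.53 in both lines.

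Genes annotated in the table with a cellular response to a metal ion were also counted. This grouping was chosen after the values of the members had been seen. For zinc, 8 genes were tested in MDA-MB-231, against 7 in MDA-MB-435, and the 1 called in either line was ZNF658, lower in MDA-MB-435 with 55 and 20 counts. For cadmium, 16 were tested in each line. FOS, an immediate early transcription factor, was called higher in both lines with folds of 3.22 (2.07 to 5.11) and 3.04 (1.99 to 4.74), and AKR1C3, an aldo-keto reductase, in MDA-MB-435 with 2.09 (1.65 to 2.65). For copper, 11 and 9 were tested, and CYP1A1, an oxidising enzyme of the aryl hydrocarbon response, was called lower in both lines with folds of 0.295 (0.221 to 0.389) and 0.460 (0.328 to 0.636). These counts, 0 of 8 and 1 of 7 for zinc, 1 and 2 of 16 for cadmium and 1 of 11 and 1 of 9 for copper, stand beside 4.17% higher and 3.13% lower of all genes in the breast cancer line and 2.89% and 7.16% in the melanoma line. Over both lines, the quasi-likelihood test called 1 higher and 1 lower of 8 for zinc (MTF1 and MT2A), 3 higher and 1 lower of 17 for cadmium (FOS, JUN, AKR1C3 and MT2A), and 0 higher and 2 lower of 11 for copper (MT2A and CYP1A1), beside 4.39% and 2.85% of all genes. MT2A and MT1F belong to all 3 of these groups. HMOX1, which heavy metals and oxidants both induce, went from 158 to 16468 counts in the breast cancer line and from 443 to 47504 in the melanoma line. MT2A was lower in the CPYPP library of each line. Whether any factor acts on the motif matches in its promoter window was not tested.

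The genes around the metallothioneins had a median fold near 1. Within 500000 bases of the outermost metallothionein members the table holds 39 other genes outside the family, of which 14 were tested in MDA-MB-231, against 16 in MDA-MB-435. Their median log2 fold was -0.001 and 0.12, against -0.01 and -0.74 for the metallothionein list. The nearest tested neighbours were NUP93, a nucleoporin, with folds of 0.942 (0.876 to 1.01) and 1.04 (0.999 to 1.09), and BBS2, a ciliary protein, with 0.883 (0.761 to 1.02) and 0.824 (0.749 to 0.906). Both lay nearer to 1 than MT2A in each line. The genes called in both lines were HERPUD1, a gene of protein degradation at the endoplasmic reticulum, with folds of 2.99 (2.73 to 3.27) and 3.39 (3.25 to 3.55), and ENSG00000261270 beside it, with 3.62 (1.35 to 11.3) and 4.73 (2.99 to 7.75). In MDA-MB-435 alone, CETP had a fold of 0.312 (0.115 to 0.730), GNAO1 of 0.465 (0.282 to 0.746) and ENSG00000261114 of 4.16 (2.52 to 7.13). Called neighbours were thus 2 of 14 in MDA-MB-231, both higher, and 5 of 16 in MDA-MB-435, 3 higher and 2 lower. Of all genes, 4.17% were called higher and 3.13% lower in the first line, and 2.89% and 7.16% in the second. HERPUD1 and ENSG00000261270 start 323.6 kb and 331.7 kb from the start of MT2A.

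**Figure D5:**
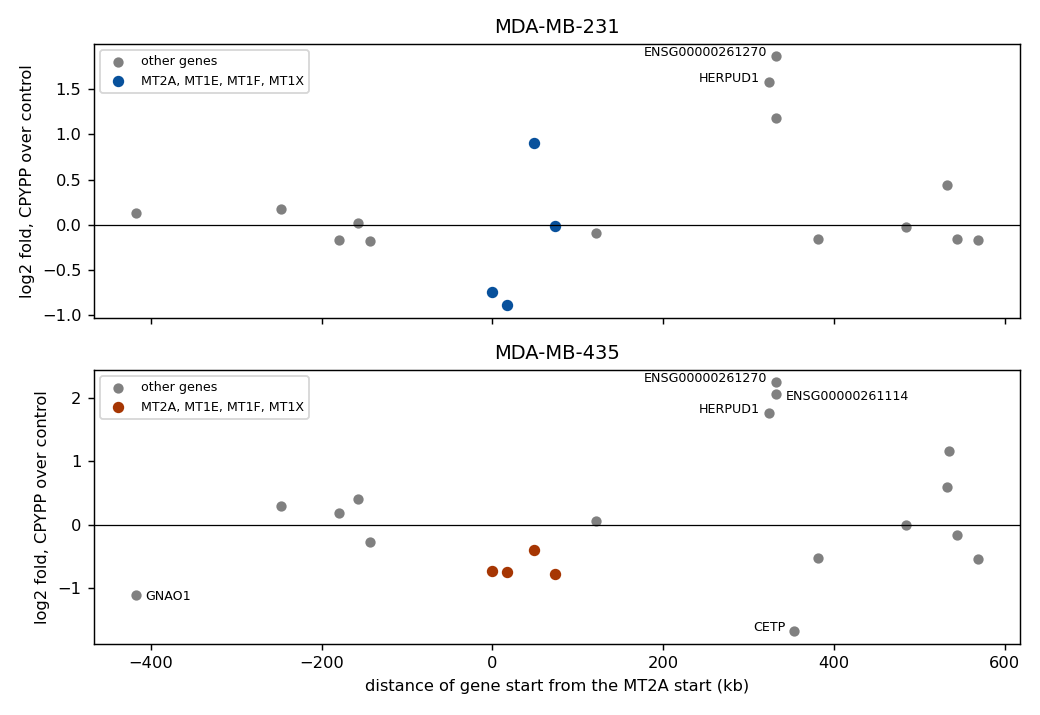
Points are genes tested in each line, placed by the distance of their start from that of MT2A in kb and by their log2 fold of CPYPP over control, with names for genes called at a fold over 2. The coloured metallothionein genes lie below 0 in MDA-MB-435 and are split in MDA-MB-231, while HERPUD1 and ENSG00000261270 stand at log2 folds above 1.5 in both. Other genes of the family are not drawn.

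Genes whose levels over the 4 libraries most resembled those of the members were found by the distance between log2 CPM values centred per gene, among 12856 genes with at least 10 counts in every library. Nearest to the summed metallothioneins were SAMD10, MNT, GEMIN6, ZNF827 and TPRA1, at distances from 0.079 to 0.119. Each of them was higher in MDA-MB-435 than in MDA-MB-231 and lower after CPYPP in both lines, as for SAMD10 with 322, 149, 1041 and 526 counts in the order 231-CTL, 231-CP, 435-CTL and 435-CP. Nearest to SLC30A1 were SERPINI1, SOD2, ENSG00000275993, MIER1 and SREK1, at distances from 0.081 to 0.138. SOD2, the mitochondrial superoxide dismutase, had 5219, 3421, 2303 and 2443 counts in the same order. With 4 libraries such likeness is a description.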

How the data were processed

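The authors deposited raw read counts per gene for 61806 genes in 4 libraries, with no normalization. The submitters' processing notes name cutadapt 1.9.1, HISAT2 2.2.1, HTSeq 0.6.1, DESeq2 and the build GRCh37.p13. The deposited positions are those of GRCh38, however: of 58254 gene identifiers also in GENCODE v29, 58196 overlapped their place there, all 8 members included. Whether reads were counted by strand is not given in the sources used here.

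Counts were analysed with edgeR 4.0.16 and DESeq2 1.42.0 in R 4.3.3, and sequences and figures with Python 3.11.15, Biopython 1.88 and matplotlib 3.10.9. Within a line, CPYPP and control were compared by an exact binomial test, two-sided, on counts scaled by TMM over the 4 libraries, for genes with at least 10 counts in either library. P-values were adjusted by the Benjamini-Hochberg method over all genes tested, and a gene was called at a fold over 2 with an adjusted p under 0.05. The effect over both lines was tested with edgeR's quasi-likelihood F test after filterByExpr, with the line as a block, which leaves 1 residual degree of freedom. The test uses the lines as the repeat of the treatment, and the p-values do not measure the spread between cultures. The procedures were tested on simulated counts. Ratios of folds carry an exact conditional interval for counting error.

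The members and gene lists were chosen with earlier results of these data known. All 8 members are named, with family genes at 10 counts or more in a library, neighbours called in both lines, and the 5 genes nearest in pattern to the summed metallothioneins and to SLC30A1. The rule also took transporter and copper genes called in a line, of which there were 0, and those named were chosen after their values were seen. Alternatives changed the scaling, the filter, the assumed variation between cultures, the fold threshold, the genes summed, the test and the block.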

Additional observations from a re-analysis of the deposited data

Results flagged for a closer look

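SLC30A1, the zinc exporter gene, stood on opposite sides of 1 in the lines, with a fold after CPYPP of 0.886 in MDA-MB-231 and of 1.44 in MDA-MB-435. The difference between the lines was not tested, since each condition has 1 library.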

How the results depend on the processing

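No member was called at a fold over 2 under any scaling or filter tried, and 3 members in each line were called once the fold threshold was 1.5. The members lower by the adjusted p alone were 3 and 4, beside 21.5% and 26.9% of all genes. They became 0 and 0 under an assumed biological coefficient of variation of 0.2 or 0.4. The members higher were 1 and 2, beside 23.8% and 23.9% of all genes. They became 0 and 0 under 0.2 or 0.4, and 0 in MDA-MB-435 under 0.1. These assumed values stand for variation between cultures that 1 library per condition cannot measure. The summed metallothionein fold in MDA-MB-435 was 0.566 with total counts in place of 0.607, and that of MT2A was 0.563 in place of 0.604. Total counts move the median log2 fold of all genes by -0.06 (MDA-MB-231) and -0.10 (MDA-MB-435). The fold of MTF1 in MDA-MB-231 lay between 1.9 and 2 over the scalings and was not called in any. The effect over both lines covered 3 members, and 0 without the line as a block, where edgeR called 0 of all genes, 167 had an unadjusted p under 0.05 and MTF1 had the lowest p of the members, an unadjusted quasi-likelihood p of 0.0924. Of all genes it called 1215, against 1930 with total counts, 1648 with the upper quartile, 1896 without the filter, 1980 with the likelihood ratio test, 1018 with the newer quasi-likelihood method and 863 with DESeq2. This fit sets control against CPYPP within each line, and a pairing by replicate number was not run, since the labels give none. The counts by the adjusted p alone, the folds of single genes under other scalings, TMM within a line and the newer quasi-likelihood method of edgeR were added after seeing the data. Leaving out a library would leave no comparison within its line and was not run. At these depths genes under about 10 counts, such as MT1F in MDA-MB-231, MT1G and MT1M, cannot show a difference of a few fold.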
